A study of Homo sapiens with 6 samples.

Results

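The genes described here make ribosomes. They are 34 genes for ribosome biogenesis and RNA polymerase I, a chosen list found by symbol among the 62700 genes of the deposited count table. All 34 were in the table, and all 34 passed the filter on low counts that left 20250 genes for testing. They were measured by poly(A) RNA sequencing in cells labelled MKN-45, the name of a long-established line from a human gastric adenocarcinoma. There were 3 control and 3 labelled NNMT knockdown libraries, from cells collected 48 h after transfection per the labels. NNMT encodes nicotinamide N-methyltransferase. Both groups were labelled as MKN-45 cells grown in the same medium. The labels do not settle how they differed in treatment. The treatment protocol names siRNA given with a lipid reagent in both groups, whereas the sample fields name shRNA. The controls are called untouched in the design text, but carry a negative-control label elsewhere. The library kit is also named in conflicting ways. The sequence of the silencing RNA and the number of clones or pools were not given in the sources used here. Replicates were described as independent biological replicates.

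Ribosome synthesis begins in the nucleolus, where RNA polymerase I transcribes one long precursor of the ribosomal RNAs. Small nucleolar ribonucleoproteins (snoRNPs) of the box C/D kind then guide methylation of this precursor, and those of the box H/ACA kind guide its conversion to pseudouridine. Separate sets of assembly factors cut and fold the precursor into the small (40S) and large (60S) subunits. The pathway is very active in growing tumour cells, and many of its genes are known targets of the transcription factor MYC, which binds the E-box hexamer CACGTG.

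This hexamer was looked for in RefSeq promoters of build GRCh38.p14, each 300 bases long, from 250 bases before to 50 bases after an annotated start. CACGTG reads the same on both strands. The table had a promoter for 28 of the 34 genes, and 12 of those 28 (42.9%) held the hexamer. It was found in 11.8% of the 12689 tested genes with a promoter, and in 8.78% of all 27305 genes of the promoter table. The reordered hexamer GACGTC, which is also its own reverse complement and was used for comparison, was in 3 of the 28 (10.7%) and in 8.86% of the tested genes. The 12 stretches are shown because they carry a feature common to many of these promoters. Whether the choice of genes favoured known targets of MYC is not known. Each runs 5′ to 3′ on the strand of the gene, with the hexamer in capitals.
FBL, chr19:39846356-39846385, minus strand: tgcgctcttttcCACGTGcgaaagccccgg
GAR1, chr4:109815781-109815810, plus strand: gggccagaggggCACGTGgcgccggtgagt
UTP4, chr16:69132621-69132650, plus strand: agagcgcgcgcgCACGTGgggccggggcgg
UTP20, chr12:101280083-101280112, plus strand: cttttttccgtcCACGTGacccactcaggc
WDR43, chr2:28894658-28894687, plus strand: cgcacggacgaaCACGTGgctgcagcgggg
RRP9, chr3:51941892-51941921, minus strand: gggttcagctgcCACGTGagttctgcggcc
NOP14, chr4:2963374-2963403, minus strand: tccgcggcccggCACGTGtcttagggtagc
PES1, chr22:30591880-30591909, minus strand: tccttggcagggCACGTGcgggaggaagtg
NOP2, chr12:6568242-6568268, minus strand: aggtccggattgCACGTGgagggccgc
GNL3, chr3:52686026-52686055, plus strand: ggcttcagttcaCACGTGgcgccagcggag
MYBBP1A, chr17:4555340-4555369, minus strand: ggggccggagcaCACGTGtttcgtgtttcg
LYAR, chr4:4290068-4290097, minus strand: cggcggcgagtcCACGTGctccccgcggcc

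The hexamer began before the annotated start in 4 of these promoters and after it in 8, at 4 to 64 bases from it. Other lists were searched in the same way, counting genes with a promoter entry. The hexamer was found for 15 of 40 other small subunit factors (37.5%), 12 of 41 other large subunit factors (29.3%), 3 of 11 genes of the MYC network (27.3%) and 4 of 17 proliferation genes (23.5%). It was found for 3 of 21 genes of the exosome and RNase MRP (14.3%), 1 of 8 further snoRNP assembly genes (12.5%) and 1 of 12 other RNA polymerase I genes (8.33%), shares nearer to that of all tested genes. Among the RNA polymerase I genes described here, 0 of 6 held it, and neither did NOP56, DKC1, NHP2, NCL, NPM1, WDR12, NOP16, RRP1, PPAN and NIP7. These are matches of letters, and binding was not measured.

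The targeted gene could not serve as a check of the labels. NNMT had 0, 8 and 12 reads in control replicates 1, 2 and 3, and 2, 8 and 14 reads in replicates 1, 2 and 3 labelled NNMT knockdown. The read numbers of the groups overlapped. Its fitted log2 fold change was 0.48 (SE 0.93, n = 3 per group, edgeR adjusted p = 0.9995), with a 95% interval from 0.336-fold to 5.78-fold, and turned to -0.04 without control replicate 1 and to -0.19 without knockdown replicate 3. The groups are therefore named by their labels throughout. Library totals ran from 40558680 to 56067484 reads, and a count of 0 allows up to 3 reads, or 0.0535 to 0.074 CPM (reads scaled to a common library total), for counting error only. The 8 epithelial markers were all present, with KRT19 the most abundant at 936 ± 18.6 CPM in control (SD, n = 3) against 1054 ± 210.3 CPM in the labelled knockdown. Fitted values of 6 of the 8 were below 0, EPCAM among them at 31.5 ± 11.4 against 21.1 ± 3.44 CPM, and 0 passed the test. Of 18 gastric and gut lineage markers, however, 10 stayed below 1 CPM in every library, and CDX1, CDX2, GATA4 and GKN1 had 0 reads in all 6. The highest of the list were KRT20 and MUC6. KRT20 was at 66.7 ± 9.08 CPM in control against 42.3 ± 23.8 CPM in the labelled knockdown. MUC6 was at 51.2 ± 29.0 against 50.3 ± 15.1 CPM. CEACAM5, CEACAM6, GATA6, MUC5AC, TFF1 and TFF2 also passed 1 CPM in at least 1 library. Leukocyte markers summed to at most 1.47 CPM in any library. Fibroblast markers, led by COL1A1, summed to 371 to 439 in control and 359 to 643 CPM in the labelled knockdown. Of these, LUM, PDGFRB and THY1 stayed below 1 CPM in every library. Endothelial markers, led by KDR, summed to 154 to 267 in control and 124 to 239 CPM in the labelled knockdown, with CDH5, TEK and VWF below 1 CPM in every library. The part these lineage signals may have in the values below was not tested.

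None of the 34 genes passed a test for a difference between the groups. With edgeR's quasi-likelihood test, 0 of 34 passed an adjusted p of 0.05, and neither did any of the 20250 genes tested (0%). The smallest adjusted p was 0.9995, for members and for all genes alike. DESeq2 called 0 of the 34 and 0.0395% of all genes (8 genes), and limma-voom called 0 of the 34 and 0% of all genes. Without a filter on low counts edgeR called 0 of the 34 and 0.19% of the 37861 genes then tested (72 genes). At an unadjusted p under 0.05 by edgeR, 0 of the 34 passed, against 4.03% of all genes (817 genes). The 3 control values and the 3 values labelled knockdown did not overlap for 0 of the 34, against 9.2% of all genes (1863 genes, 875 higher and 988 lower in the labelled knockdown).

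The fitted differences were small. The median log2 fold change (labelled knockdown over control) of the 34 genes was -0.01, with 15 above 0 and 19 below, and the middle 50% lay between -0.05 and 0.03. Over all genes tested the median was 0.0033, and the middle 50% lay between -0.12 and 0.13. The extremes were -0.22 for RRP9 and 0.24 for NOP2. The 95% interval of the fold change lay inside 1.5-fold in either direction for 32 of the 34 genes (94.1%), against 52.7% of all genes tested. The exceptions were RRP9, with an interval from 0.646 to 1.14, and NOP2, with 0.736 to 1.89. For the other genes a change past 1.5-fold was therefore outside the interval, while changes within the interval of each gene were not resolved. These genes are more abundant than most, with a median of 62.8 CPM against 9.57 CPM over all genes tested, and their median SE was 0.10 against 0.18 on the log2 scale. Bulk RNA cannot tell a change in the share of nucleolar-rich cells from a change in RNA of these genes per cell.

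**Figure D1:**
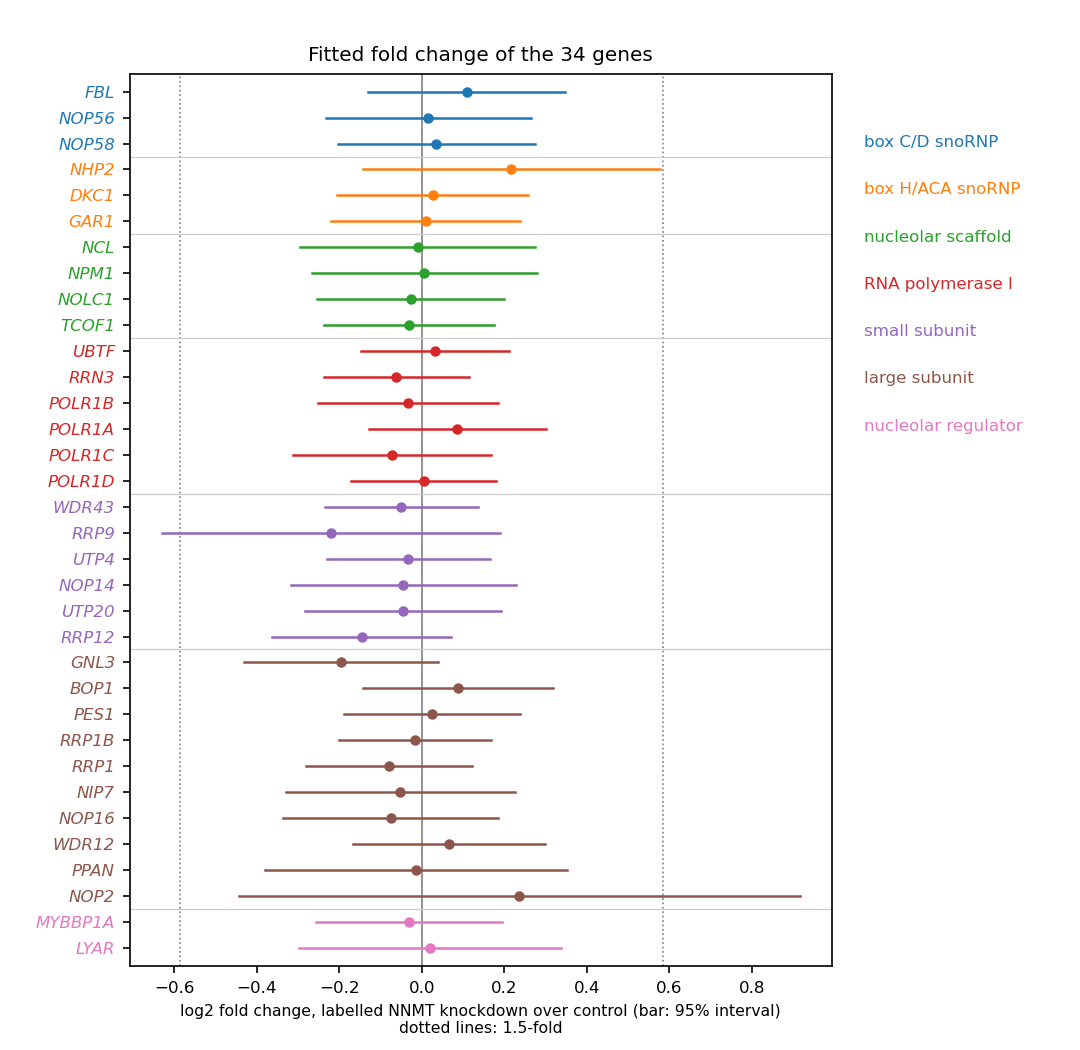
Fitted log2 fold change of each of the 34 genes (point; x axis, labelled NNMT knockdown over control) with its 95% interval (bar), from edgeR with 3 libraries per group, coloured by role. All 34 intervals cross 0, and those of RRP9 and NOP2 pass the dotted 1.5-fold lines.

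Levels between genes are given as RPKM, here the CPM per kilobase of all annotated exons of the gene merged, which lowers the value of genes with long rarely used exons. From highest to lowest mean over 6 libraries, the order began with NCL at 73.1 RPKM, NPM1 at 69.0, FBL at 41.9, GNL3 at 35.2 and UBTF at 33.7. The ranges of neighbours in this order overlapped for NCL and NPM1, FBL and GNL3, and GNL3 and UBTF, although NCL was above NPM1 in each of the 6 libraries. At the low end, POLR1D had 3.70 RPKM, PPAN 3.01 and NOP2 0.253. The median of the 34 was 12.01 RPKM, against 2.42 RPKM over all genes tested. The order depends on the length used, because reads in exons shared with another gene were not counted. Over unshared exon bases alone, NHP2 had 42.1 RPKM, against 41.9 for FBL, 36.7 for GNL3 and 35.1 for UBTF. By the same measure PPAN had 5.93 RPKM and POLR1D 3.71.

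**Figure D2:**
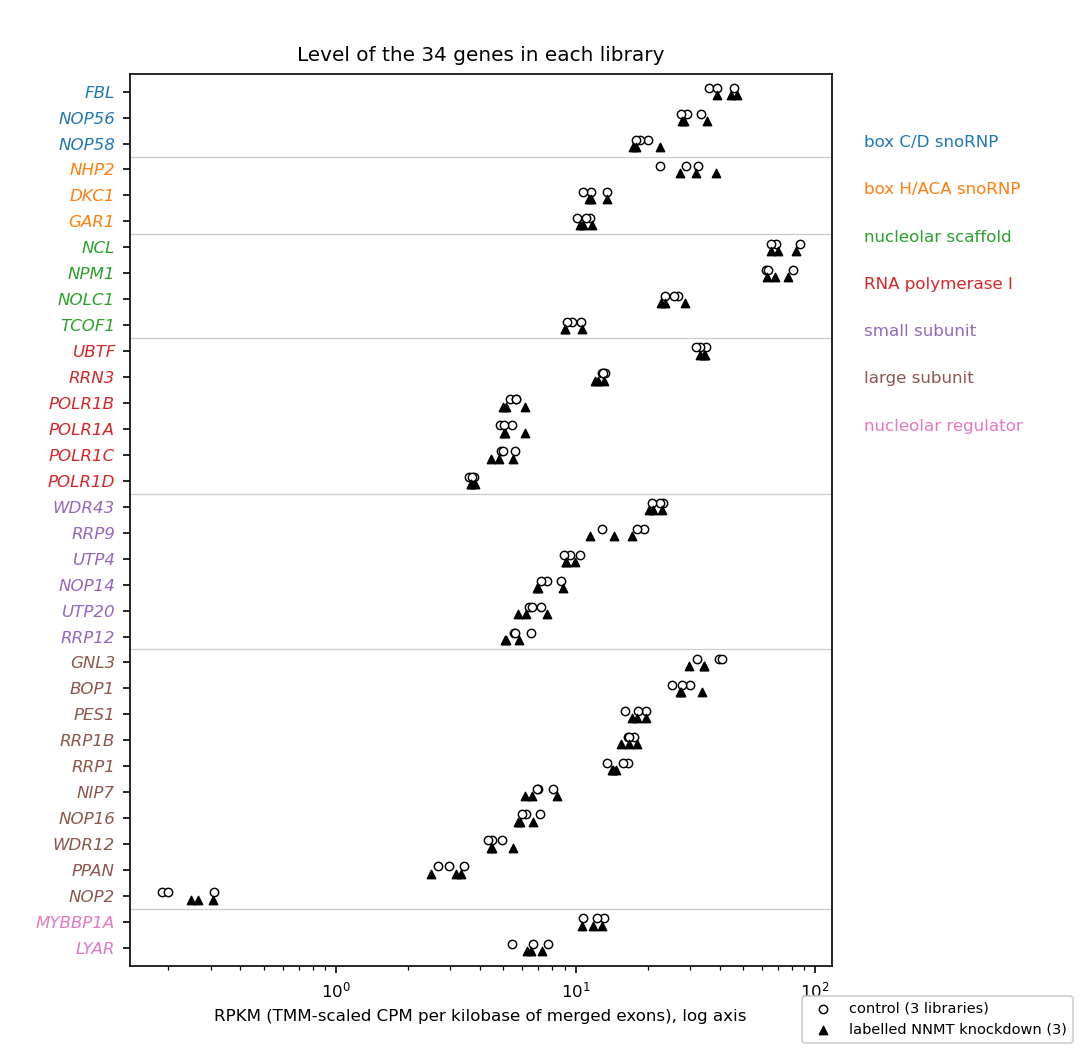
Level of each gene in each library in RPKM on a log axis, with control libraries as open circles and libraries labelled NNMT knockdown as filled triangles, ordered by role and level. The levels span NOP2 at 0.253 to NCL at 73.1 RPKM, and circles and triangles overlap for each gene.

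Of the RNA polymerase I genes, UBTF, the factor that binds ribosomal DNA and keeps it open for transcription, was the most abundant. It stood at 35.0, 32.9 and 32.0 RPKM in control replicates 1 to 3 and at 34.4, 34.8 and 33.0 RPKM in the replicates labelled knockdown. The groups overlapped and the fold change was 1.02 (95% interval 0.903 to 1.16). POLR1A, the largest catalytic subunit, had the lowest p of these 6 genes. Its values were 5.41, 4.83 and 5.04 RPKM in control and 5.03, 6.13 and 5.07 RPKM in the labelled knockdown. Only knockdown replicate 2 lay above all controls, and the log2 fold change was 0.09 (SE 0.10, edgeR unadjusted p = 0.392).

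The second catalytic subunit, POLR1B, was measured at 5.54 ± 0.198 RPKM (SD, n = 3) in control and 5.41 ± 0.646 RPKM in the labelled knockdown. POLR1C and POLR1D, which RNA polymerase III also uses, were at 5.16 ± 0.372 against 4.91 ± 0.542 RPKM and at 3.70 ± 0.085 against 3.71 ± 0.0975 RPKM. RRN3, which joins the polymerase to its promoter factors, was at 13.1 ± 0.189 RPKM in control and 12.6 ± 0.561 in the labelled knockdown. POLR1D, UBTF and RRN3 varied least among libraries of all 34. The ratio of the highest to the lowest library was 1.06 for POLR1D, 1.10 for UBTF and 1.11 for RRN3, against a median of 1.27 over the 34 genes and 1.48 over all genes tested.

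FBL, the methyltransferase of box C/D snoRNPs, was both the most abundant of its group and the one with the lowest p. It was at 46.0, 36.2 and 38.9 RPKM in control and at 44.5, 47.2 and 38.9 RPKM in the labelled knockdown. Control replicate 1 lay between the 2 higher knockdown libraries, so the groups overlapped, and the log2 fold change was 0.11 (SE 0.11, edgeR unadjusted p = 0.337). Its core partners NOP56 and NOP58 were at 30.1 ± 3.00 against 30.4 ± 4.20 RPKM and at 18.8 ± 1.11 against 19.3 ± 2.81 RPKM.

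NHP2, a core protein of box H/ACA snoRNPs, had the largest ratio of highest to lowest library of the 34. Its values were 32.5, 29.0 and 22.6 RPKM in control and 31.9, 38.5 and 27.2 RPKM in the labelled knockdown. The highest library was 1.71 times the lowest, the groups overlapped, and the log2 fold change was 0.22 (SE 0.16, edgeR unadjusted p = 0.204). DKC1, the pseudouridine synthase of these particles, was at 11.98 ± 1.38 RPKM in control and 12.2 ± 1.17 in the labelled knockdown. GAR1, another core protein, was at 10.9 ± 0.665 and 10.9 ± 0.669 RPKM.

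Among the nucleolar scaffold proteins, NCL (nucleolin) was highest at 86.2, 68.5 and 65.5 RPKM in control and 70.2, 83.0 and 65.5 RPKM in the labelled knockdown. One library of each group stood well above the rest, and the log2 fold change was -0.01 (SE 0.13). NPM1 (nucleophosmin), at 68.8 ± 10.2 against 69.1 ± 7.26 RPKM, had the same pair of high libraries. NOLC1, which binds snoRNPs in the nucleolus, was at 25.5 ± 1.62 and 24.98 ± 3.28 RPKM. TCOF1 (treacle), which acts with RNA polymerase I, was at 10.6, 9.63 and 9.23 RPKM in control and at 9.06, 10.7 and 9.06 RPKM in the labelled knockdown. It had the lowest p of this group, at 0.75 unadjusted (edgeR, log2 fold change -0.03, SE 0.09). NPM1 has 49 genes named as its copies in the annotation, which together held 286 to 515 reads per library against 22317 to 30091 for NPM1. Reads that aligned to several places were not counted, so the NPM1 level is a lower estimate. The same limit holds for RRN3, whose 5 named copies held 95 to 178 reads per library against 1976 to 3076 for RRN3.

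All 6 small subunit factors had fitted log2 fold changes below 0, from -0.22 to -0.03, and 0 of the 6 passed even an unadjusted p of 0.05. Leaving out 1 library turned UTP4 to 0.03 and NOP14 to 0.04 (without control replicate 1) and UTP20 to 0.04 (without knockdown replicate 1). WDR43, a member of the complex that first meets the nascent precursor, was the most abundant at 23.2, 22.5 and 20.9 RPKM in control and 20.2, 23.0 and 21.2 RPKM in the labelled knockdown. RRP12, which takes part in maturation and export of pre-ribosomes, had the lowest p. Its values were 5.56, 6.504 and 5.61 RPKM in control and 5.11, 5.81 and 5.05 RPKM in the labelled knockdown, with a log2 fold change of -0.15 (SE 0.10, edgeR unadjusted p = 0.166). Knockdown replicate 2 lay above 2 of the controls. Without that library and control replicate 1, a choice made after the values were seen, the log2 fold change of RRP12 was -0.26 (edgeR unadjusted p = 0.0381, adjusted p = 0.925).

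RRP9, a protein of the U3 snoRNP, had the lowest fitted log2 fold change of the 34 (-0.22, SE 0.18). It was at 19.3, 18.0 and 12.9 RPKM in control and 11.4, 17.1 and 14.5 RPKM in the labelled knockdown. The groups overlapped through control replicate 3, without which the log2 fold change was -0.38 (edgeR unadjusted p = 0.0414, adjusted p = 0.953). UTP4, of the same early complex as WDR43, was at 9.61 ± 0.762 and 9.39 ± 0.482 RPKM. UTP20 and NOP14, both of the small subunit processome, were at 6.72 ± 0.380 against 6.52 ± 0.951 RPKM and at 7.82 ± 0.809 against 7.58 ± 1.08 RPKM.

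In the large subunit set, GNL3 (nucleostemin), a nucleolar GTPase, was both the most abundant and the gene with the lowest p of all 34. It was at 39.8, 40.7 and 32.2 RPKM in control and 29.7, 34.4 and 34.3 RPKM in the labelled knockdown. Control replicates 1 and 2 were above each knockdown library, but control replicate 3 was below 2 of them. The log2 fold change was -0.20 (SE 0.11, edgeR unadjusted p = 0.0951, adjusted p = 0.9995). Without control replicate 3 it was -0.30 (edgeR unadjusted p = 0.0125, adjusted p = 0.916).

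The 3 proteins of the PeBoW complex, which is needed for maturation of the large subunit RNAs, had fitted values a little above 0. Without knockdown replicate 2 the log2 fold changes were -0.02 for BOP1, -0.04 for PES1 and -0.04 for WDR12, and without control replicate 3 that of PES1 was -0.05. BOP1 was at 27.8 ± 2.41 RPKM in control and 29.5 ± 3.60 in the labelled knockdown. PES1 was at 18.0 ± 1.85 and 18.3 ± 1.30 RPKM, and WDR12 at 4.58 ± 0.318 and 4.79 ± 0.589 RPKM. The paralogs RRP1 and RRP1B were at 15.3 ± 1.53 against 14.5 ± 0.323 RPKM and at 16.9 ± 0.526 against 16.8 ± 1.26 RPKM. NIP7 and NOP16, 2 further pre-60S factors, were at 7.32 ± 0.652 against 7.06 ± 1.19 RPKM and at 6.44 ± 0.606 against 6.11 ± 0.489 RPKM.

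PPAN and NOP2 need care, because their exons are shared with other annotated genes and reads that overlap several genes were not counted. NOP2, a methyltransferase of the large subunit RNA, had 36, 70 and 53 reads in control and 57, 54 and 54 in the labelled knockdown. These are 0.232 ± 0.0677 and 0.274 ± 0.0294 RPKM. Of its merged exon bases, 54.4% also belong to a second gene model on the same strand (ENSG00000285238), which itself had 0 reads in all 6 libraries. Set against its unshared exon bases alone, NOP2 had 0.555 RPKM. PPAN, a pre-60S factor, was at 3.02 ± 0.393 RPKM in control and 3.00 ± 0.434 in the labelled knockdown. It shares 47.6% of its exon bases with the readthrough gene PPAN-P2RY11, which had 0 to 3 reads per library, and it had 5.93 RPKM over its unshared exon bases. How many reads were set aside was not measured, so the levels of NOP2 and PPAN are lower estimates.

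**Figure D3:**
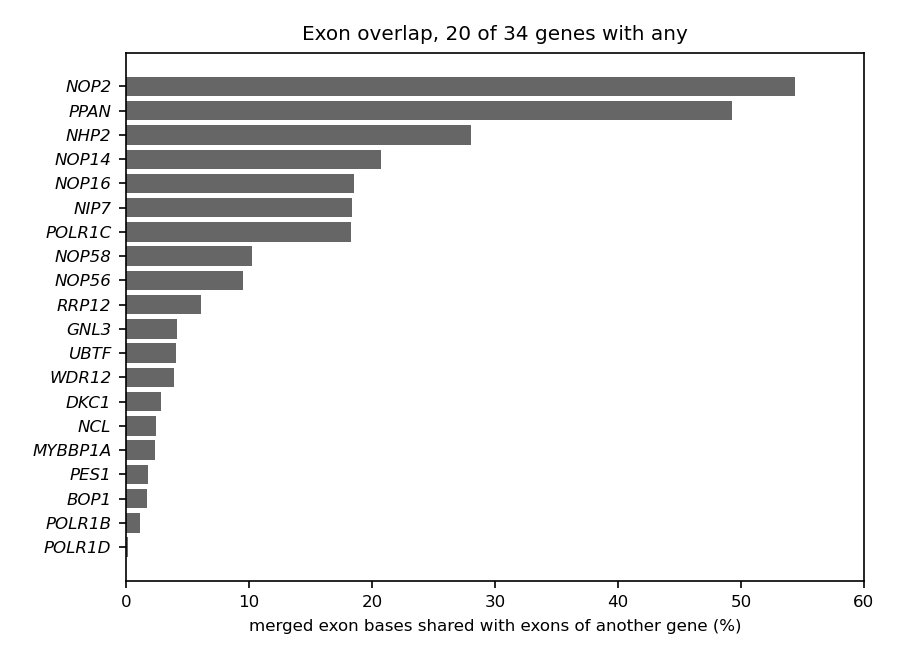
Share of merged exon bases that also lie in exons of another annotated gene on either strand (x axis, percent), for the 20 of 34 genes with any. NOP2 at 54.4% and PPAN at 49.2% exceed 40%, and the next is NHP2 at 28.0%.

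Overlap of this size was as common among the 34 genes as elsewhere, with 2 of 34 (5.88%) above 40% against 5.97% of all genes tested. Counting used no strand, so reads in exon bases shared with a neighbour on the opposite strand were not counted either. The level of NHP2, which shares 28.0% of its exon bases with RMND5B, is therefore a lower estimate too. The same holds for NOP14 (20.7%), NOP16 (18.6%), NIP7 (18.4%) and POLR1C (18.3%). By contrast, hosting of small nucleolar RNAs was frequent. The gene bodies of 7 of the 34 (20.6%) held 23 same-strand annotated snoRNA genes, against 1.01% of all genes tested with any. NOP56 held 5, NOP58 and GNL3 4 each, NCL and WDR43 3 each, and DKC1 and PPAN 2 each.

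The regulators MYBBP1A and LYAR completed the list. MYBBP1A, a nucleolar protein that binds MYB, was at 13.1, 12.3 and 10.8 RPKM in control and 10.6, 12.9 and 11.9 RPKM in the labelled knockdown, with a log2 fold change of -0.03 (SE 0.10, edgeR unadjusted p = 0.776). LYAR, a nucleolar zinc finger protein, was at 6.60 ± 1.13 and 6.69 ± 0.515 RPKM.

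The 34 genes varied together between libraries, and this pattern crossed the groups. It was noticed in the values and is given as a description with no test. Control replicate 1 and knockdown replicate 2 were high. Of the 34 genes, 28 were above their own mean over 6 libraries in control replicate 1 and 30 in knockdown replicate 2. The counts were 15 and 4 in control replicates 2 and 3, and 6 and 2 in knockdown replicates 1 and 3. The highest value of the 6 was in one of the 2 high libraries for 29 genes (85.3%), against 35.3% of all genes tested. Both high libraries were above the other 4 for 25 genes (73.5%), against 12.01% of all genes tested.

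In 5 of the 6 libraries the median deviation was larger than the median difference between groups. The median log2 deviation from the gene's own mean was 0.12, -0.0038 and -0.10 in control replicates 1 to 3 and -0.08, 0.14 and -0.08 in knockdown replicates 1 to 3. Over all genes tested it was between 0.0018 and 0.01 in each library. Summed over the 34 genes, the level was 3764, 3301 and 3153 in control and 3256, 3766 and 3166 CPM in the labelled knockdown. The 5 genes whose highest library was another were POLR1D, RRP12, PPAN, NOP2 and GNL3. Of these, PPAN was lowest in knockdown replicate 2, and POLR1D and NOP2 were lowest in control replicate 1. By role, the median deviation in control replicate 1 was 0.18 for scaffold proteins and 0.05 for RNA polymerase I genes. In knockdown replicate 2 it was 0.23 for box C/D proteins, 0.10 for large subunit factors and 0.09 for RNA polymerase I genes.

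**Figure D4:**
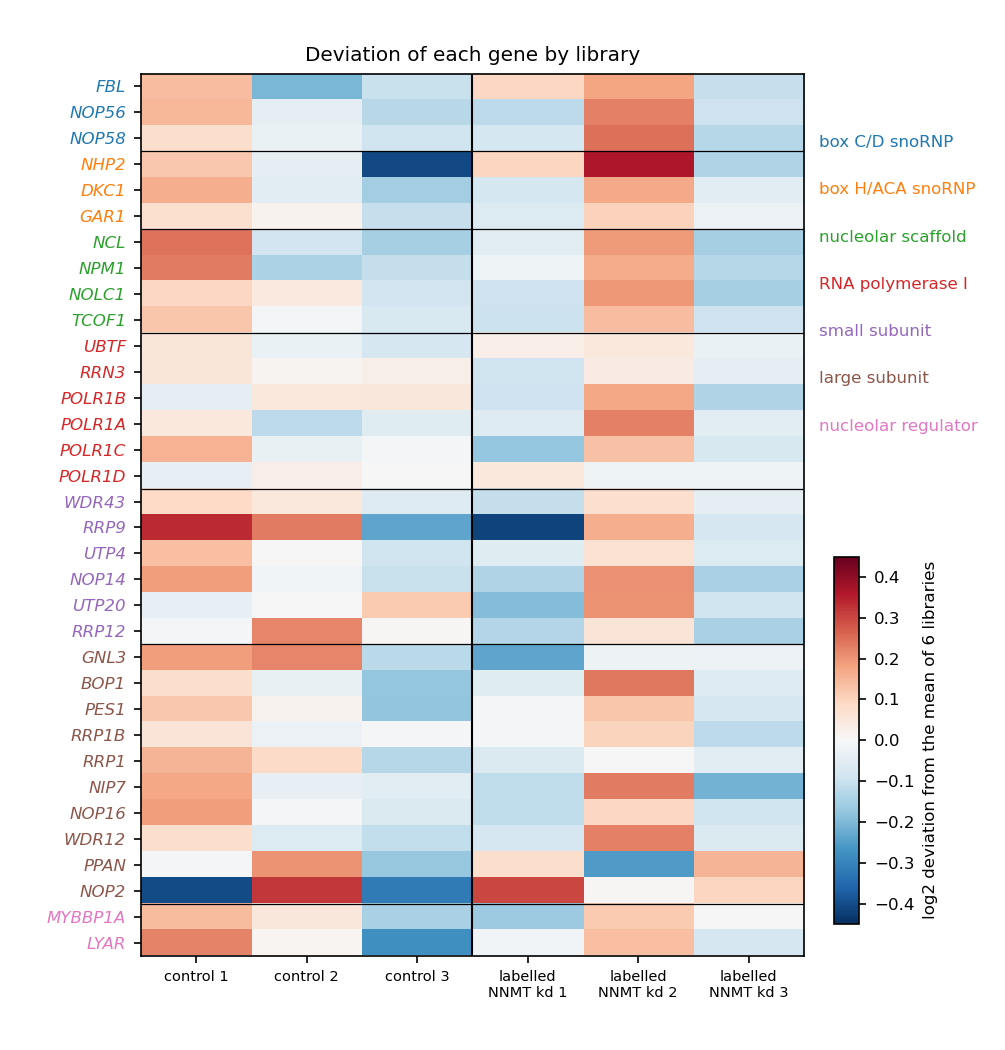
Log2 deviation of each gene (row) in each library (column) from its mean over the 6 libraries, red for above and blue for below, with genes ordered by role. The columns of control 1 and labelled NNMT knockdown 2 are mostly red, with 28 and 30 of 34 genes above their mean, and the rows of POLR1D, UBTF and RRN3 are pale.

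A list of 20 proliferation genes moved with the same libraries. All 20 were above their mean in control replicate 1 and in knockdown replicate 2, and 0 of 20 in control replicate 3 and in knockdown replicate 3. Their median log2 deviations were 0.21, -0.18 and -0.22 in control and 0.06, 0.32 and -0.19 in the labelled knockdown. Knockdown replicate 1 set the lists apart, with 16 of 20 proliferation genes but 6 of the 34 ribosome biogenesis genes above their mean. So did control replicate 2, with 1 of 20 proliferation genes but 15 of the 34 above their mean. The part of proliferation in the pattern was not tested. MYC itself followed it in part, at 111.8, 110.5 and 91.9 in control and 103.6, 116.1 and 95.8 CPM in the labelled knockdown, with a log2 fold change of 0.0064 (SE 0.10). Genes with and without the E-box hexamer shared the pattern. The median deviation in control replicate 1 was 0.14 for the 12 with it and 0.14 for the 16 without it, and in knockdown replicate 2 it was 0.12 and 0.17.

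**Figure D5:**
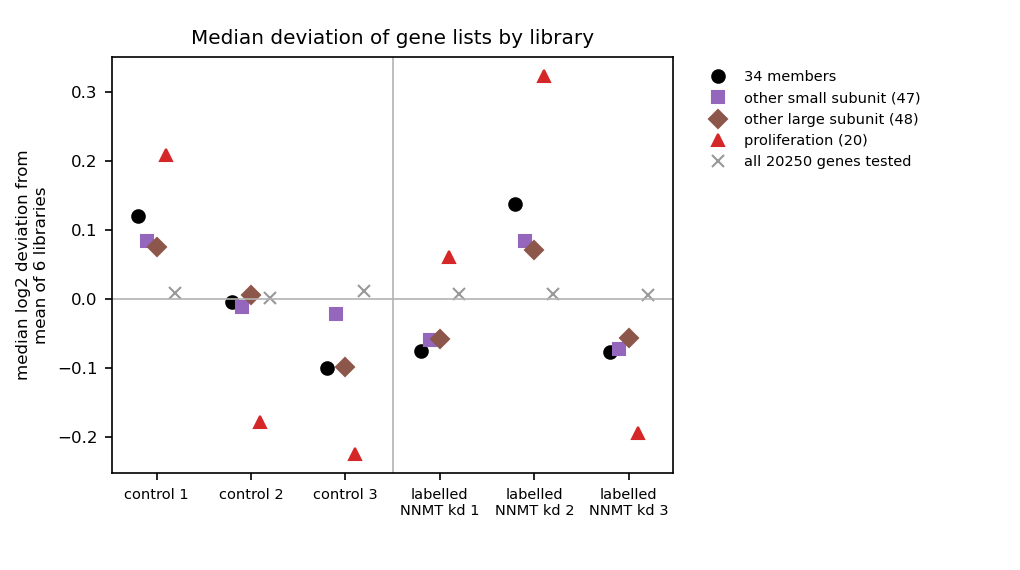
Median log2 deviation from the mean of 6 libraries (y axis) in each library for the 34 genes, 2 lists of further subunit factors, the proliferation list and all 20250 genes tested. Control 1 and labelled NNMT knockdown 2 are high for the 4 lists shown, while the median over all genes stays near 0. Lists without this pattern, such as the MYC network, are not shown.

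Further genes of the pathway, taken from lists of other factors, gave 0 calls in either direction by edgeR after adjustment over all genes. Of 47 other small subunit factors, 15 had fitted log2 fold changes above 0 and 32 below (median -0.04), and the groups did not overlap for 5, all lower in the labelled knockdown (10.6%, near the 9.2% of all genes tested). KRR1, a small subunit processome protein, was one of them, at 62.4, 66.3 and 63.0 in control and 47.3, 55.2 and 58.4 CPM in the labelled knockdown (log2 fold change -0.25, SE 0.09, edgeR unadjusted p = 0.022, adjusted p = 0.9995). FCF1, which acts in the same particle, had the lowest p among those above 0 (log2 fold change 0.20, SE 0.10, unadjusted p = 0.071). Both libraries that were high for the 34 genes were high here too, with 38 and 35 of 47 above their mean.

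The 48 other large subunit factors were split 15 above 0 and 33 below, with a median of -0.01. The lowest p values were those of EIF6, which keeps the subunits apart, at 0.22 (SE 0.10) and of the helicase DDX55 at -0.25 (SE 0.11) on the log2 fold change scale. For 3 of the 48 the groups did not overlap, 1 higher and 2 lower (6.25%, against 9.2% of all genes tested). Control replicate 1 had 40 of 48 above their mean and knockdown replicate 2 had 36.

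Of 14 other RNA polymerase I genes, including subunits shared with the other polymerases, 9 were above 0 and 5 below (median 0.04). POLR2L, a small subunit common to RNA polymerases I, II and III, was at 129.6, 109.9 and 82.4 in control and 170.9, 169.3 and 125.2 CPM in the labelled knockdown. Knockdown replicate 3 was below control replicate 1, so the groups overlapped. Its log2 fold change was 0.53 (SE 0.18, edgeR unadjusted p = 0.0197, adjusted p = 0.9995). Without a filter on low counts POLR2L passed the threshold (edgeR adjusted p = 0.000344). It did not pass under any other alternative, with an adjusted p of 0.485 by DESeq2 and 0.9845 by limma-voom. POLR2K, another shared subunit, did not overlap, at 81.0 ± 2.10 in control and 74.9 ± 3.67 CPM in the labelled knockdown, with a log2 fold change of -0.11 (SE 0.08).

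The 10 further snoRNP assembly genes had 6 above 0 and 4 below, with RUVBL2, an assembly ATPase, at 0.17 (SE 0.12) and NUFIP1, an assembly factor, at -0.14 (SE 0.15). The 24 genes of the exosome and RNase MRP, which trim and cut the precursor, had 13 above 0 and 11 below, with the RNase P and MRP proteins POP7 at 0.14 (SE 0.15) and RPP14 at -0.25 (SE 0.14). RPP14 did not overlap between groups, at 15.1 ± 0.805 in control and 12.7 ± 1.84 CPM in the labelled knockdown. Of 11 tested genes of the MYC network, 5 were above 0 and 6 below, with MXD3 at 0.35 (SE 0.14) and MXI1, like MXD3 a partner of MAX that opposes MYC, at -0.18 (SE 0.14). The proliferation list was the most one-sided of these, with 19 of 20 above 0, a median of 0.12 and 0 calls. TYMS, the thymidylate synthase, was at 0.18 (SE 0.12), and BUB1B, a mitotic checkpoint kinase, at -0.09 (SE 0.16). Control replicate 1 and knockdown replicate 2 were not high for each of these lists. The median log2 deviations in these libraries were -0.04 and -0.00068 for the MYC network. They were 0.03 and 0.0017 for the further snoRNP assembly genes, and 0.09 and 0.10 for the exosome and RNase MRP. For the other RNA polymerase I genes they were 0.05 and 0.13.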

How the data were processed

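The authors deposited a table of read counts per gene. Per the file headers, counts were made with featureCounts 2.0.6 on GENCODE 44 and hg38, without strand, and reads with several alignments or overlapping several genes were not counted. The aligner was not given in the sources used here. Mates were counted singly: 73.4% to 76.7% of counts from 2 to 10 were even, so counting limits based on reads are too narrow. All 62700 identifiers matched a symbol. Genes were filtered with filterByExpr, scaled with TMM and tested with edgeR 4.0.16 (R 4.3.3, quasi-likelihood, robust, group as sole term, Benjamini-Hochberg over all 20250 genes). The biological coefficient of variation was 18.3%. CPM are TMM-scaled. NNMT did not pass the filter and was added to its own fit. Library pairs differed by a chi-square of 11.97 to 44.0 per gene over 15 pairs, so no pair agreed within sampling noise.

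The members, lists and rule for named genes were chosen with earlier results of these data known. All members are named. Values per library are given, in each role, for the most abundant gene and that with the lowest p, as well as for NNMT and MYC. RRP9, KRR1 and POLR2L values per library and NOP2 reads were added after they were seen. From each other list the gene with the lowest p in each direction is named. Alternatives were RLE scaling, library totals alone, other filters, a replicate block, DESeq2 1.42.0, limma-voom (limma 3.58.1) and leaving out each library. Leaving out control replicate 1 and knockdown replicate 2 together was added after seeing the data. The test was checked on simulated data with known changes.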

Additional observations from a re-analysis of the deposited data

How the results depend on the processing

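The 34 genes gave 0 calls under each of the 7 alternatives in scaling, filter, block or tool, and 0 when libraries were left out. The count over all genes was 72 without a filter on low counts and 8 with DESeq2, and 0 to 1 when libraries were left out. The cause was not tested. The median log2 fold change of the 34 genes ran from -0.098 without knockdown replicate 2 to 0.031 without control replicate 1, and was -0.032 without both. Genes above 0 numbered 15 of 34 in the test of all libraries, 23 without control replicate 1, 9 without control replicate 3, 21 without knockdown replicate 1, 6 without knockdown replicate 2 and 22 without knockdown replicate 3. The number of these genes whose groups did not overlap ran from 0 to 10 when libraries were left out. It was 10 (29.4%, all lower in the labelled knockdown) without knockdown replicate 2, the library that was highest for 17 of the 34, against 19.8% of all genes tested in that design. It was also 10 without control replicate 1 and knockdown replicate 2 together, against 35.4% of all genes tested, and 0 to 3 in the other designs, against 14.8% to 22.4%. The log2 fold change of NNMT ran from -0.19 to 1.06. Without a filter on low counts, GNL3 and NHP2 had unadjusted edgeR p values of 0.0469 and 0.0443, both with an adjusted p of 0.875.

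Replicate numbers did not pair the libraries throughout: the deviations of same-numbered libraries correlated at 0.055, -0.078 and 0.189 for replicates 1, 2 and 3. The value for replicate 3 was the highest of any control with any knockdown library. That pair also had the lowest chi-square per gene of all library pairs, at 11.97. With 3 libraries per group, a batch shared by number cannot be settled. With the number as a block edgeR called 0 genes and the members' median log2 fold change was -0.017. Of the knockdown libraries, replicate 2 correlated best with control replicate 1 (0.139).

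When libraries were left out, 11 of the 34 genes kept their sign and 23 did not, while 0 changed sign under the other alternatives. Of the other named genes, NUFIP1, POP7, BUB1B and MYC changed sign too. The log2 fold changes of these 27 genes ran as follows: NOP56 from -0.11 to 0.097, NOP58 from -0.095 to 0.10, DKC1 from -0.060 to 0.12, GAR1 from -0.045 to 0.048, NCL from -0.12 to 0.12, NPM1 from -0.082 to 0.13, NOLC1 from -0.14 to 0.038, TCOF1 from -0.12 to 0.024, POLR1A from -0.017 to 0.14, POLR1B from -0.17 to 0.025, POLR1D from -0.018 to 0.021, UTP4 from -0.084 to 0.029, UTP20 from -0.20 to 0.035, NOP14 from -0.17 to 0.040, BOP1 from -0.022 to 0.15, PES1 from -0.054 to 0.092, WDR12 from -0.044 to 0.12, NOP16 from -0.15 to 0.0026, RRP1B from -0.077 to 0.035, PPAN from -0.100 to 0.097, NIP7 from -0.20 to 0.036, MYBBP1A from -0.11 to 0.039, LYAR from -0.10 to 0.15, NUFIP1 from -0.24 to 0.0093, POP7 from -0.0056 to 0.27, BUB1B from -0.25 to 0.070 and MYC from -0.080 to 0.069.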
